A study of Arabidopsis thaliana with 2 samples.

Results

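Cytochrome P450 genes of Arabidopsis thaliana were examined in hypocotyls, the stem below the seed leaves. Members were all probe sets assigned to exactly 1 gene whose symbol is CYP followed by a family number, a subfamily letter and a gene number. Cyclophilin genes, some of which carry similar symbols, do not match this pattern. Of 13513 single-gene probe sets among 22746 plant probe sets, 23 qualified, each for a different gene. They belong to 5 of the 40 families with such symbols in the RefSeq gene table. Of these 23 genes, 19 are in subfamily CYP71B, and families CYP51, CYP78, CYP79 and CYP84 have 1 member each. The table lists 236 P450 genes in all, 36 of them in CYP71B, so 213 P450 genes were not analysed here. Nothing is concluded about them, and the only signals given for any of them come from probe sets shared by 2 genes.

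The study concerned genes of secondary wall formation, and both of its samples, called sample 1 and sample 2, were hypocotyls of the Col ecotype at growth stage 6.0. The plants grew on compost and vermiculite at 22 °C under 8 h of light and 16 h of darkness, and a product named Intercept was given with their first watering. Neither a mutant nor an untreated group was included, so there was 1 group with 2 samples, 1 ATH1 array each, and no contrast between conditions. Whether different plants went into each sample is not stated in the labels, and the spread between samples may be technical only. Whole organs were extracted, and a low signal can therefore come from few cells of a type or from little RNA in each cell, which cannot be told apart. Of 9 genes checked as tissue markers, 8 were above the detection limit, defined with the results, on both arrays. The same limit was passed by 70.0% of plant probe sets, so this count alone says little about tissue. CLE41 and MOL1, genes of cambium regulation, gave 757 and 268 in sample 1 and 699 and 259.6 in sample 2. GUT2 and HCT, genes of xylan and lignin synthesis, gave 159.6 and 1575 in sample 1 and 186 and 1435 in sample 2. The photosynthesis genes RCA and LHCB4.1, typical of leaves, gave 243 and 653 in sample 1 and 252 and 694 in sample 2. The root hair genes EXPA7 and EXPA18 were just above the limit, at 14.9 and 15.2 in sample 1 and 13.6 and 15.0 in sample 2. Whether so small a margin over the limit reflects expression was not tested. The anther gene A9 (AT5G07230) was near 0, at 2.2 and 1.2. What green tissue or roots contributed to the P450 signals was not tested.

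P450s are heme enzymes that usually insert 1 oxygen atom of O2 into a substrate and draw electrons from a reductase in the same membrane. Plants have very large P450 families, which hydroxylate lignin precursors, hormones, sterols, fatty acids and defence compounds. Family numbers group related sequences, and the CYP71 family, which gives its name to the largest clan of plant P450s, contains many tandem duplicates. Its best known Arabidopsis enzyme is PAD3 (CYP71B15), which completes the synthesis of the antifungal compound camalexin. PAD3 itself was not analysed here.

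A gene was called detected when its scaled signal exceeded that of the brightest of 27 control probe sets for Bacillus transcripts on the same array, which was 13.1 in sample 1 and 12.6 in sample 2. Few of the 23 P450 genes passed. Of the 23, 7 (30.4%) were above the limit on both arrays, 2 on 1 array and 14 on neither. The limit was passed on both arrays by 70.0% of plant probe sets as a whole and by 65.9% of those with a single gene. The detected genes were CYP71B6, CYP71B23, CYP71B28, CYP71B34, CYP71B37, CYP78A9 and CYP84A4. The median signal of the 23 genes was 9.6 in sample 1 and 6.0 in sample 2, where the medians of all probe sets on the array were 42.0 and 42.7. The count moved with the limit: 14 genes passed on both arrays with the highest of 3 TrpnX controls (2.5 and 3.3) as a lower limit, where 85.2% of plant probe sets passed, and 5 passed at a signal of 50, where 45.1% did. At each of these limits the share of the 23 genes was below that of plant probe sets. As 19 of the 23 are in CYP71B, this share is mainly that of 1 subfamily and does not describe P450 genes in general. Of the 4 genes outside it, 2 passed the main limit on both arrays. These shares and medians describe the arrays, and no test was run. Probe sets differ in how brightly they report a given amount of RNA, so signals are read mainly against the limit and between samples. Comparisons between genes, such as that of the medians, are rough for this reason.

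**Figure D1:**
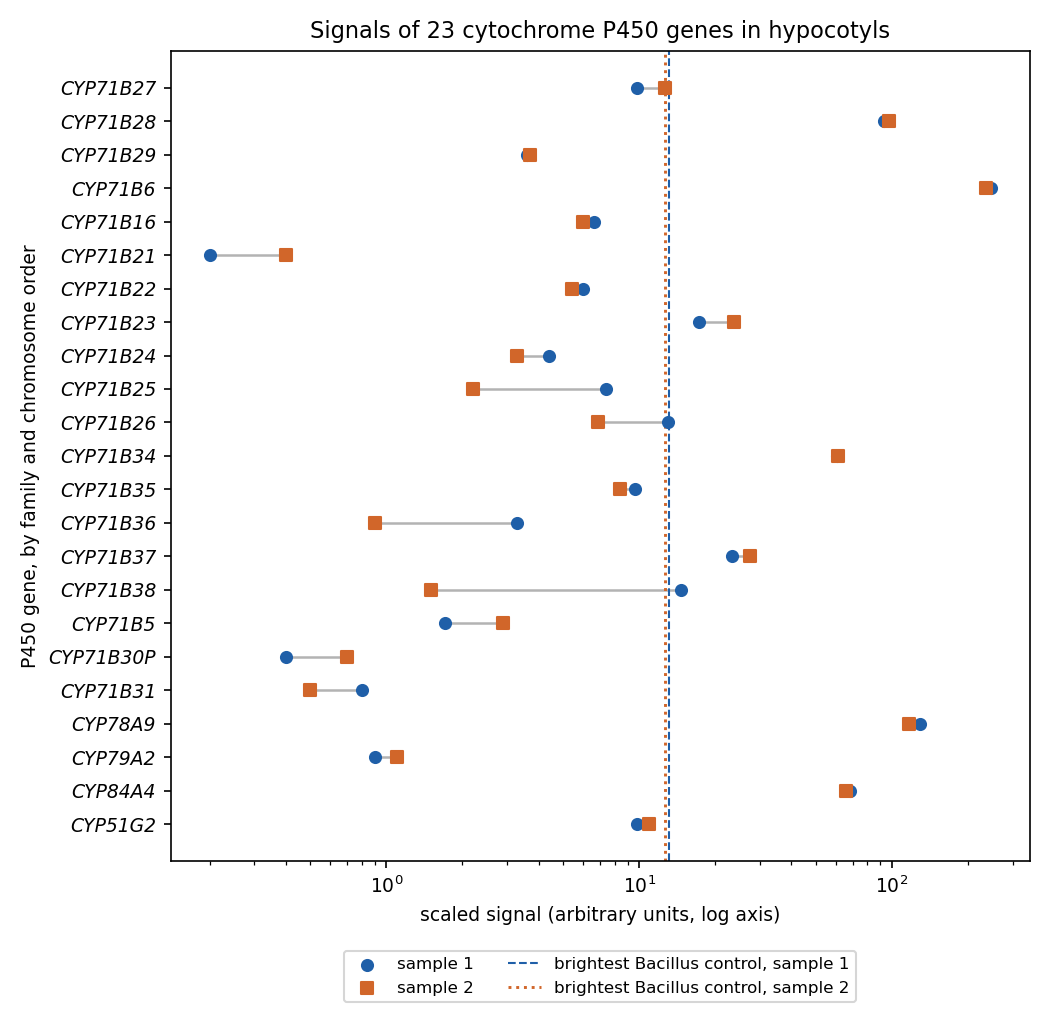
Scaled signal (arbitrary units, log axis) of each of the 23 P450 genes, listed by family and chromosome order, with a circle for sample 1 and a square for sample 2. Vertical lines mark the brightest Bacillus control of each array, 13.1 and 12.6; 7 genes lie to the right of both lines in both samples, and CYP71B38 has the widest gap between its points, from 14.6 to 1.5.

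Of the 4 genes outside family CYP71, 2 were detected in both samples. CYP84A4, a relative of the lignin enzyme ferulate 5-hydroxylase that acts in the synthesis of arabidopyrones, catechol-derived pyrones, had signals of 68.2 in sample 1 and 65.7 in sample 2 (mean 66.9 ± 1.77, SD, n = 2). CYP78A9, a regulator of fruit and seed size, had 129.6 and 117 (mean 123 ± 9.05, SD, n = 2). Both genes were at least 5.2 times the limit on each array.

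The other 2 of these families gave signals under the limit on both arrays. CYP79A2 turns phenylalanine into the aldoxime from which benzylglucosinolate is made, and its signals were 0.90 and 1.1. CYP51G2, a relative of the sterol 14-demethylase gene that RefSeq classes as a transcribed pseudogene, had 9.8 and 10.9. It lay closer to the limit than CYP79A2, at 0.748 times the limit in sample 1 and 0.865 times in sample 2.

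Within CYP71B, 5 of 19 genes (26.3%) were detected in both samples, 2 in 1 sample and 12 in neither. CYP71B6, which acts on indole-3-acetonitrile to form indole carboxylic acid, had 246 in sample 1 and 236 in sample 2 (mean 241 ± 6.93, SD, n = 2). It was 18.8 times the limit in sample 1 and 18.7 times in sample 2. It is also the only one of the 23 genes with a mean of 200 or more. CYP71B28 had 93.4 and 97.4 (mean 95.4 ± 2.83), and CYP71B34 had 60.8 and 61.1 (mean 60.9 ± 0.212, both SD, n = 2). These 3 genes were well above the limit in both samples, and the samples differed little.

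CYP71B23 and CYP71B37 were detected at low signals. CYP71B37 had 23.4 and 27.5 (mean 25.4 ± 2.90, SD, n = 2), and CYP71B23 had 17.3 and 23.7 (mean 20.5 ± 4.53, SD, n = 2). They are the members closest above the limit, at 1.79 and 1.32 times it on the array where each was lower relative to it. By the same measure, the lower of a gene's 2 ratios to the limit, the closest genes that did not pass on both arrays were CYP71B27 and CYP51G2, both at 0.748 times the limit in sample 1. CYP71B27, which RefSeq also classes as a transcribed pseudogene, had 9.8 in sample 1 and 12.7 in sample 2, the second value just above the limit of that array.

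CYP71B38 lay on different sides of the limit in the 2 samples by a wider margin. Its signal was 14.6 in sample 1, above the limit, and 1.5 in sample 2, far below it. Set against the limit of the second array, the signal in sample 1 was at least 1.16-fold higher, which is all that the controls allow to be said. The limit was likewise passed on exactly 1 array by 5.16% of plant probe sets. CYP71B26 came near to the same pattern, with 13.0 in sample 1, which is 0.992 times the limit there, and 6.9 in sample 2.

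The remaining genes of the subfamily stayed below the limit on both arrays. CYP71B31, which oxidises linalool in flowers, had 0.80 and 0.50, and its neighbours CYP71B30P and CYP71B5 had 0.40 and 0.70, and 1.7 and 2.9. CYP71B21 had 0.20 and 0.40. All 4 genes lay far below the limit in both samples. CYP71B36 had 3.3 and 0.90, CYP71B29 had 3.6 and 3.7, and CYP71B24 had 4.4 and 3.3. CYP71B25 had 7.4 in sample 1 and 2.2 in sample 2, but both values are under the limit and no ratio is given. CYP71B16 had 6.6 and 6.0, CYP71B22 had 6.0 and 5.4, and CYP71B35 had 9.6 and 8.4. For all of these the arrays show only that the transcript was not above the limit, not that it was absent.

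Most CYP71B genes lie next to each other on the chromosomes, so detection was also read along the gene order of the RefSeq table (TAIR10.1 assembly). A run was defined as CYP71B genes with at most 5 other genes between neighbours. Of the 19 CYP71B genes, 17 fall into 4 runs, and CYP71B6 on chromosome 2 and CYP71B38 on chromosome 3 stand alone. Detection was mixed within 3 of the 4 runs. The share over the whole subfamily was 5 of 19 genes (26.3%), and that over single-gene plant probe sets was 65.9%. The run counts also move with the limit: CYP71B27 and CYP71B29 passed on both arrays at the lower TrpnX limit. With so few measured genes in each run, no pattern along the chromosomes can be read from these counts. In the run of 5 genes on chromosome 1 that starts with CYP71B27, 1 of 3 measured genes was detected in both samples, CYP71B28. Its direct neighbour CYP71B29 was under the limit in both.

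On chromosome 3, the run of 10 genes from CYP71B16 to CYP71B24 had 1 detected gene, CYP71B23, among 5 measured. A probe set shared by 2 other genes of this run was not counted. It gave 160.6 in sample 1 and 168 in sample 2, above the limit in both. The run of 8 genes from CYP71B25 to CYP71B37 had 2 among 6, CYP71B34 and CYP71B37, at its middle and its end. Between them lie CYP71B35 and CYP71B36, which were under the limit in both samples. The run of 4 genes that starts with CYP71B5 had none among its 3 measured genes, CYP71B5, CYP71B30P and CYP71B31. All 23 probe sets have plain names, the Affymetrix form for a probe set designed to match 1 transcript, but cross-hybridisation between such close relatives was not tested.

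**Figure D2:**
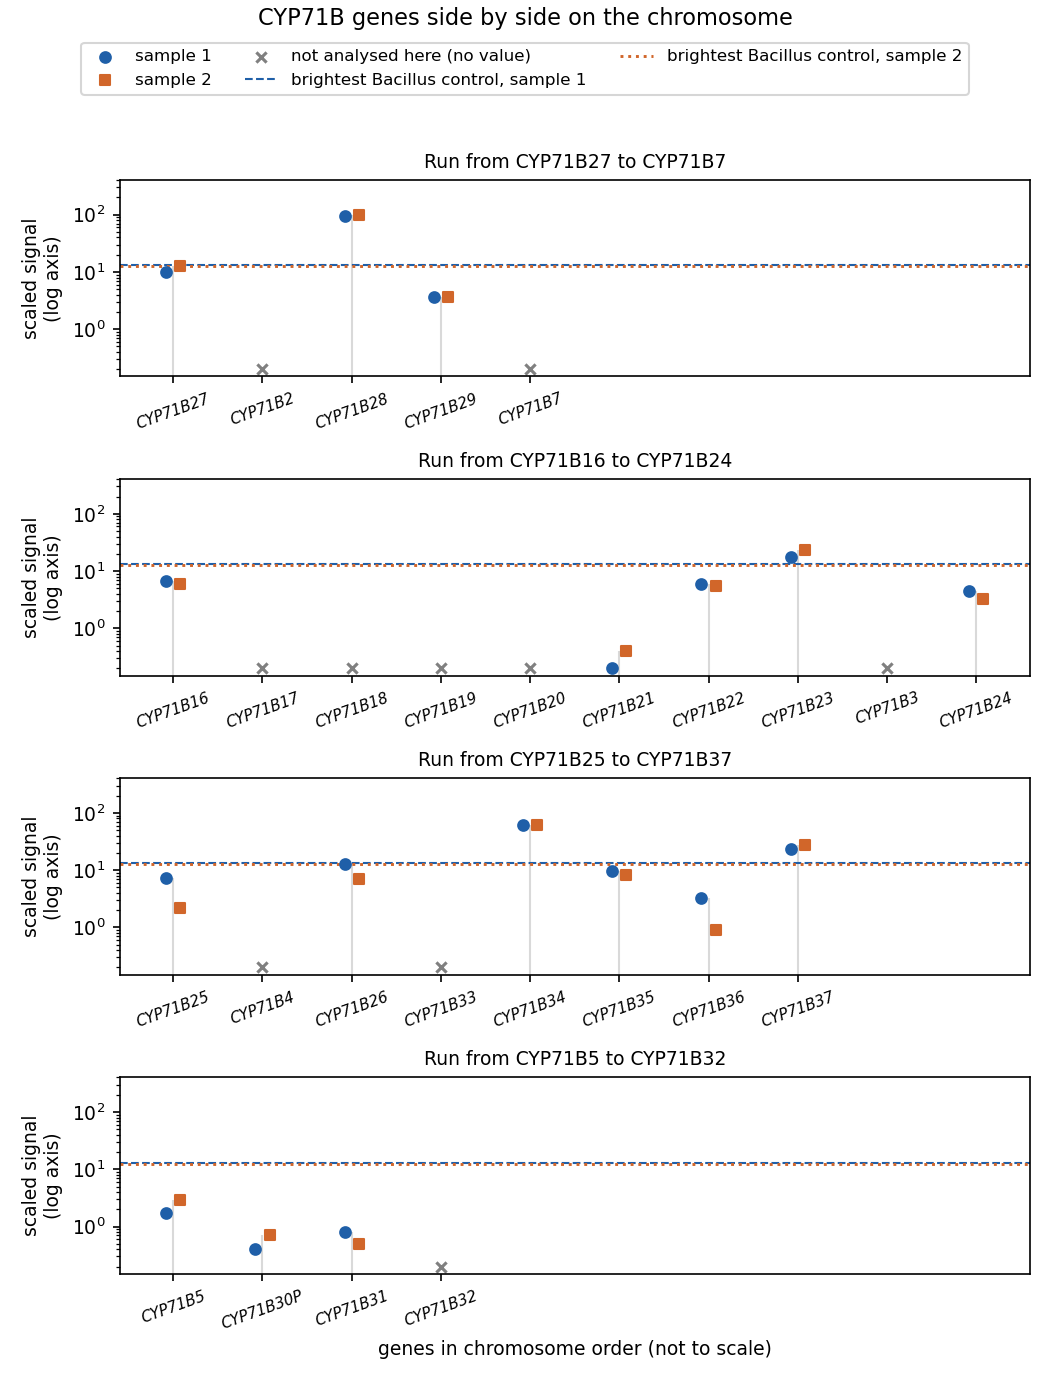
Scaled signal (log axis) of CYP71B genes in the 4 runs with measured members, drawn in chromosome order and not to scale, with circles for sample 1, squares for sample 2 and crosses for genes with no single-gene value here. Horizontal lines mark the brightest Bacillus controls; CYP71B28, CYP71B23, CYP71B34 and CYP71B37 lie above them in both samples while the genes beside them lie at or under them or have no value.

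The 7 detected genes differed little between the samples. The log2 ratio of sample 2 over sample 1 ranged from -0.15 for CYP78A9 to 0.45 for CYP71B23, with a median of 0.01 against 0.00 over all detected plant probe sets. None of the 7 differed by 1.5-fold or more, against 3.79% of detected plant probe sets, and none by 2-fold or more, against 0.465%. With shares this low, finding none among 7 genes does not set the P450 genes apart. The largest difference was 1.37-fold, for CYP71B23. Of the 7 genes, 4 were higher in sample 2 (CYP71B23, CYP71B28, CYP71B34 and CYP71B37) and 3 in sample 1 (CYP71B6, CYP78A9 and CYP84A4). With means between 20 and 50, CYP71B23 and CYP71B37 had log2 ratios of 0.45 and 0.23, where the SD over 4020 plant probe sets of that range was 0.33. CYP71B28, CYP71B34 and CYP84A4, with means between 50 and 100, had 0.06, 0.01 and -0.05, where that SD was 0.25. CYP71B6 had -0.06, where the SD at means between 200 and 500 was 0.20, and CYP78A9 had -0.15, where it was 0.22 at means between 100 and 200. Only the ratio of CYP71B23 was larger than 1 SD of probe sets of like signal. The share of all plant probe sets beyond 1 SD was not counted, so this does not set CYP71B23 apart.

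**Figure D3:**
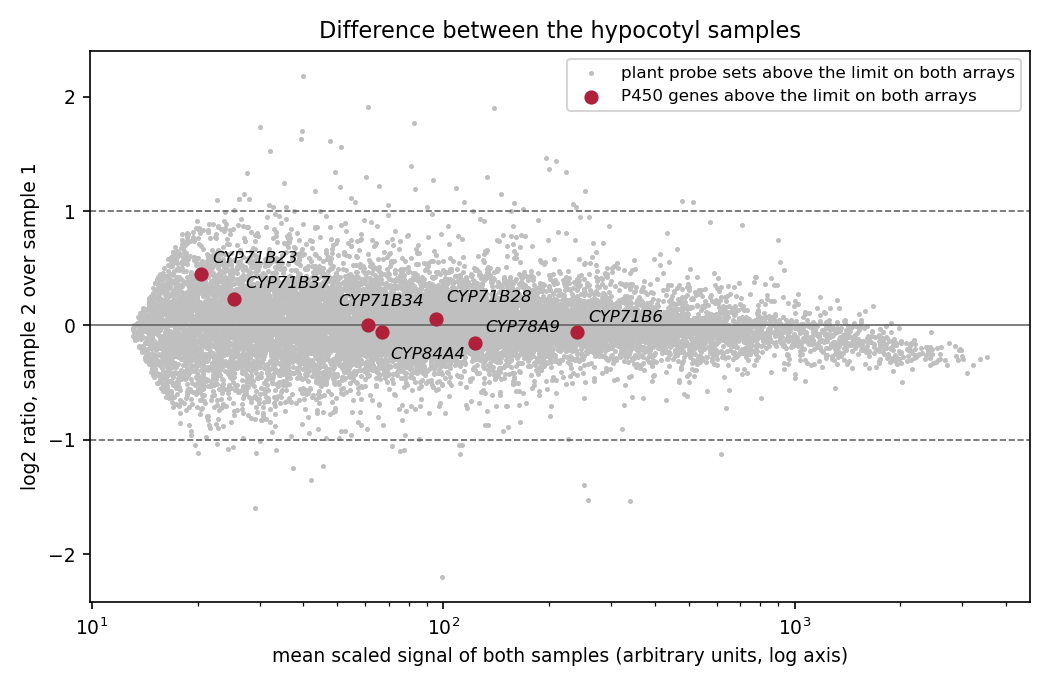
Log2 ratio of sample 2 over sample 1 against the mean scaled signal (log axis) for the 15919 plant probe sets detected in both samples (grey) and the 7 detected P450 genes (red). Dashed lines mark 2-fold differences; the P450 genes lie between -0.15 and 0.45, inside the grey cloud.

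Pathways that rely on P450 enzymes could hardly be followed. Of 15 lists with 87 P450 names in all, 5 had a measured member, 1 each: CYP84A4 for phenylpropanoids, CYP51G2 for sterols, CYP79A2 for glucosinolates, CYP71B31 for terpenoids and CYP78A9 for organ growth. CYP84A4 and CYP78A9 were detected in both samples and the other 3 in neither. The 10 lists without one include those for brassinosteroids, gibberellins, cutin and suberin, and the pollen wall. Of 10 possible electron donors of P450 enzymes, 1 was measured, AT3G02280, a diflavin reductase gene with signals of 30.4 and 36.0, above the limit in both samples. Whether its product gives electrons to any P450 was not tested. P450 genes were also looked up by 28 loci, since they may be known under names such as C4H or DWF4. None of these loci had a named probe set here. They overlap with the 87 names and are not all additional genes.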

How the data were processed

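RNA was biotin-labelled and read in 1 colour per the labels, and the authors deposited a linear intensity for each of 22810 probe sets on 2 arrays. Which software produced the intensities is not given in the sources used. Judged by the values, each array had been set to a trimmed mean of 100 (2% removed from either end), and rescaling to it changed next to nothing. Per the labels, the average background was 79.94 for sample 1 and 95.57 for sample 2. Counts exclude 64 control probe sets. The number of arrays limits the precision.

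Names come from the platform annotation, and 13436 of 13513 single-gene probe sets took their symbol from the RefSeq gene table. The 503 with several genes were not named, and 8730 plant probe sets are unnamed here. No build is named for the values, so no coordinates are given, and no sequences were used.

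The log2 ratio has nothing added and covers probe sets detected in both samples. With 1 group, nothing was tested. Named genes were to be all members of the pathway lists, others differing by 1.5-fold or with a mean of 200 or more, and those nearest the limit; the rest of the 23 were added so that each is accounted for. Members, lists and the limit were chosen with earlier results of these data known. Calculations used Python 3.11.15, numpy 2.4.6, pandas 2.3.3, scipy 1.17.1 and statsmodels 0.14.6 and were tested on simulated arrays. Alternatives were other limits, scalings, thresholds, symbol sources and single samples.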

Additional observations from a re-analysis of the deposited data

How the results depend on the processing

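The number of P450 genes above the limit depended on the limit. It was 14 of 23 with the highest of 3 TrpnX controls (2.5 in sample 1 and 3.3 in sample 2), where 85.2% of plant probe sets passed, and 11 of these were CYP71 genes. The added genes were CYP51G2, CYP71B16, CYP71B22, CYP71B26, CYP71B27, CYP71B29 and CYP71B35. It was 5 at 2 times the brightest Bacillus control, where 58.0% of plant probe sets passed, and 5 at a signal of 50, where 45.1% did, and CYP71 had 3 in both cases. From a single sample it was 8 to 8, with CYP71B38 added in sample 1 and CYP71B27 in sample 2, while 71.7% of plant probe sets passed in sample 1 and 73.4% in sample 2. It was 7 under each of the 4 other scalings and 3 other ways of choosing probe sets or symbols. In none of the 13 recomputations, including that at 1.5-fold, did a detected P450 gene reach the fold threshold. The median log2 ratio stayed between -0.05 and 0.01, and its sign was not the same under all of them. No paired analysis was possible because both samples belong to 1 group. Signal over background limits what can be read: 14 of the 23 genes were below the brightest Bacillus control on both arrays.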

Other observations

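Some probe sets whose annotation includes a CYP symbol fell outside the rule. One is shared by 2 neighbouring P450 genes of the chromosome 3 run that starts with CYP71B16, and neither is named from it. It gave 160.6 in sample 1 and 168 in sample 2, above the limit in both. Another, assigned to a P450 gene and a second gene, gave 4.5 and 6.1, under the limit. CYP718, a P450 whose symbol has no subfamily letter, gave 1.7 and 1.8. The cyclophilin genes CYP71 and CYP59, which are unrelated to P450 enzymes despite their symbols, gave 139.1 and 154, and 76.1 and 52.9.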
